A study of Mus musculus with 17 samples.

Results

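The genes of bone resorption and acid secretion described here are Acp5, Ctsk, Mmp9, Mmp14, Car2, Clcn7, Ostm1, Tcirg1, Atp6v0d2 and Calcr, 10 of the 41388 genes counted. They were chosen by name, and their read counts were taken from all 17 RNA-seq libraries. Bone marrow macrophages (BMMs) were grown with M-CSF, and pre-osteoclasts (preOCs, labelled osteoclast or OC) were the same cells given 100 ng/ml RANKL as well for 24 h. There were 3 BMM libraries of each genotype, 6 preOC libraries of Bap1flox and 5 of Bap1LysM. Both genotypes come from adult male mice that carry loxP sites in Bap1, the gene of a deubiquitinase. Bap1flox littermates have no Cre, whereas Bap1LysM mice are heterozygous for Cre in the lysozyme 2 gene (Lyz2). Lyz2 is active in the whole myeloid lineage and not in osteoclasts alone.

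An osteoclast seals off a patch of bone and acidifies the space under it, which dissolves the mineral. Carbonic anhydrase 2 (Car2) makes the protons, the vacuolar proton pump (V-ATPase) moves them across the ruffled border, and the chloride/proton exchanger Clcn7 with its partner Ostm1 balances the charge. Cathepsin K (Ctsk) and metalloproteinases then digest the exposed collagen, tartrate-resistant acid phosphatase (Acp5, TRAP) is secreted with them, and the calcitonin receptor (Calcr) receives the hormone that stops resorption. RANKL is known to raise many osteoclast genes of this kind in macrophages, and loss of Car2, Clcn7, Ostm1 or Tcirg1 is a known cause of osteopetrosis.

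The genes lie apart in the mouse genome (GRCm38, coordinates as counted). Acp5 is at chr9:22126731-22135746, Ctsk at chr3:95499286-95509362, Mmp9 at chr2:164940780-164955850, Mmp14 at chr14:54431604-54441258 and Car2 at chr3:14886426-14900769. Clcn7 is at chr17:25133391-25162104, Ostm1 at chr10:42583822-42702459, Tcirg1 at chr19:3896050-3907133, Atp6v0d2 at chr4:19876841-19922605 and Calcr at chr6:3685677-3764713. All are protein coding, and the counts cover their exons, from 1482 bases for Ctsk to 7211 for Ostm1.

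RefSeq promoter windows (250 bases before to 50 after a start, GRCm38.p6) were at hand for 7 of the 10 genes, in 13 windows. Mmp9, Car2 and Atp6v0d2 had no entry. The windows were searched on both strands for CACGTG (the E-box read by MITF and TFEB), TGANTCA (the AP-1 site) and GGAAA (the core of an NFAT site). CACGTG was found in 1 of the 13 windows, that of the outermost Clcn7 start, and is in 7.15% of all 32851 windows. TGANTCA was found in 0 of the 13, against 7.81% of all windows, and GGAAA in 8 of the 13, near the 61.3% of all windows. A match describes letters and not a bound site. The stretches below run from 180 bases before to 20 after the outermost start and are shown for the strongly induced Acp5, Ctsk and Calcr beside the weakly induced Clcn7. Capitals mark GGAAA, or its complement on the other strand, in the first 3 and CACGTG in Clcn7.
Acp5 (chr9:22135727-22135926, minus strand): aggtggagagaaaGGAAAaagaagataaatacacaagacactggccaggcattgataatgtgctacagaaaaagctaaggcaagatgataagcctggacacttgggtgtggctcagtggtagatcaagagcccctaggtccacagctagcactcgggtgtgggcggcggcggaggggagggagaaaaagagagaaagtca
Ctsk (chr3:95499030-95499229, plus strand): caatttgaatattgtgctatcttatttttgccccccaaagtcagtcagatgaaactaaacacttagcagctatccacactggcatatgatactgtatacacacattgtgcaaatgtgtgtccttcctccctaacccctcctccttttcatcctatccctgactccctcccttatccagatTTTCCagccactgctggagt
Calcr (chr6:3764694-3764893, minus strand): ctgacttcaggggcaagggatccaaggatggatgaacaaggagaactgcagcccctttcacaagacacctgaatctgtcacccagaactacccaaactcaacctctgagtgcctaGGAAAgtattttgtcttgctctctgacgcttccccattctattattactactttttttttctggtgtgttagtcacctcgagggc
Clcn7 (chr17:25133211-25133410, plus strand): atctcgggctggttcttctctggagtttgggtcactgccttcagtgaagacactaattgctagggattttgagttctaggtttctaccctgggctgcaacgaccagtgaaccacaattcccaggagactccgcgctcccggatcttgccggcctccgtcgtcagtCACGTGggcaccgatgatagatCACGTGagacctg
The match begins 167 bases before the start in Acp5, at the first base of the transcript in Ctsk and 65 bases before the start in Calcr. The pair in Clcn7 begins 15 bases before the start and at base 8 after it. The outermost Clcn7 window also holds GGAAA, 213 bases before the start and outside the stretch shown.

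Library totals ran from 37967542 to 61369441 counts. Replicates 1 to 3 and preOC replicates 4 to 6 are named in different forms and are called library set 1 and set 2. All BMMs are in set 1. The mitochondrial share of counts was 0.481 to 1.074% in set 1 and 2.364 to 5.264% in set 2. Gene-level Bap1 counts overlapped between the genotypes (log2 difference -0.22 in preOCs, adjusted p = 0.18 by edgeR without pairing), and such counts do not resolve the floxed exons. Within every shared number of BMMs and preOCs, Bap1 CPM was lower in Bap1LysM. Lyz2 was at 0.148 to 0.485% of the Bap1flox mean in 6 of the 8 Bap1LysM libraries. The libraries labelled Bap1LysM BMM 1 and preOC 1 stood apart, with 45.7% and 80.6%. The paper gives Bap1LysM mice as heterozygous for Cre, and which of these Lyz2 levels goes with that genotype was not tested. Because Bap1 counts do not resolve the deletion, whether BMM 1 and preOC 1 carry it was not settled. These 2 libraries are grouped by their label throughout. Results on the 10 genes that moved are also given without them. Of 11 osteoclast markers, 11 rose with RANKL in Bap1flox and 9 in Bap1LysM, where 31.7% and 10.8% of all genes tested were called higher. Calcr, Oscar, Dcstamp and Ocstamp were below 1 CPM in every BMM library. They were tested only through the preOCs, where they are high, so they had to differ. Acp5, Ctsk, Calcr, Atp6v0d2 and Mmp9 are also among the 10 genes, so the count is no separate check. In preOCs each marker was above 1 CPM in at least 1 library of each genotype. The summed macrophage markers were 28800 to 33800 CPM in Bap1flox BMMs and 9740 to 17000 in Bap1flox preOCs, against 7880 to 19100 and 3260 to 11600 in Bap1LysM. Lyz2, the site of Cre, is one of those 8 markers, and the other 7 summed to 8930 to 11000 and 3080 to 3960 CPM in Bap1flox, against 7840 to 9520 and 3250 to 5060 in Bap1LysM. Car2 is also an enzyme of red cells, and the 7 erythroid markers summed to at most 0.617 CPM in any library.

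The first comparison asks how RANKL changed these genes. The fitted rises use library set 1 alone, and CPM of set 2 are given as values. In Bap1flox cells 9 of the 10 rose, where 31.7% of all 13415 genes tested were called higher. Of these, 7 rose at least 4-fold, against 3.04% of all genes. In Bap1LysM cells 8 of the 10 rose, against 10.8% of all 13627 genes tested, and the share called at least 4-fold higher among all genes was 2.99%. Car2 and Calcr passed the filter on low values only through the preOCs, where they are high, so they had to differ and their calls support nothing. Of the other 8, 7 rose in Bap1flox, 5 of them at least 4-fold, and 6 rose in Bap1LysM. The median log2 change of the 8 was 2.53 in Bap1flox and 2.83 in Bap1LysM, against -0.046 and 0.01 over all genes. RANKL is known to induce most of them, so their direction was not independent of how they were chosen. In bulk RNA, more cells that express a gene and more RNA per cell cannot be told apart.

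Among the secreted enzymes, Acp5, the phosphatase stained to identify osteoclasts, measured 6.42, 12.4 and 11.5 CPM (CPM are TMM-scaled counts over the library total) in Bap1flox BMMs 1 to 3 and 8.31, 7.78 and 5.38 in Bap1LysM BMMs. In Bap1flox preOCs it ran from 1210 to 2780 CPM, and in Bap1LysM preOCs it was 839, 2570, 2490, 2220 and 2150 in libraries 1, 2, 4, 5 and 6. Every preOC library was above every BMM library, and the 2 genotypes overlapped at both stages. The log2 rise was 7.46 ± 0.38 (SE, 3 against 3) in Bap1flox, edgeR adjusted p = 1.1e-05, and 7.89 ± 0.58 (3 against 2) in Bap1LysM, edgeR adjusted p = 0.0039.

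Ctsk, the collagen-cleaving cathepsin of the resorption space, measured 3.55, 4.66 and 5.95 CPM in Bap1flox BMMs and 12, 4.15 and 4.72 in Bap1LysM BMMs. In preOCs it was 695, 918, 878, 1710, 1350 and 1060 CPM in Bap1flox and 555, 1300, 1720, 1580 and 1960 in Bap1LysM. The highest Bap1LysM BMM value is that of library 1, and the stages did not overlap. Ctsk rose by 7.45 ± 0.24 on the log2 scale in Bap1flox (edgeR adjusted p = 2.8e-06) and by 7.06 ± 0.66 in Bap1LysM (edgeR adjusted p = 0.0065).

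Mmp9, the secreted gelatinase B, was the most abundant of the 10 in preOCs. It measured 9.35, 52.3 and 72.8 CPM in Bap1flox BMMs and 48.6, 68.2 and 173 in Bap1LysM BMMs, an uneven start among replicates. In preOCs it ran from 3650 to 7720 CPM in Bap1flox and from 3640 to 10500 in Bap1LysM. It took 0.397 to 0.85% of all counts in Bap1flox preOCs and 0.354 to 1.13% in Bap1LysM preOCs. Its log2 rise was 7.08 ± 0.85 in Bap1flox (edgeR adjusted p = 0.00034) and 6.19 ± 0.77 in Bap1LysM (edgeR adjusted p = 0.01). The fold was 135 in Bap1flox, and leaving out a BMM library gave 101 (without BMM 1) to 204 (without BMM 3). In Bap1LysM it was 72.9, and leaving out a BMM library gave 58.4 (without BMM 1) to 121 (without BMM 3). Mmp14, the membrane-bound collagenase MT1-MMP, rose less, by 2.18 ± 0.37 in Bap1flox (edgeR adjusted p = 0.0017) and 3.07 ± 0.45 in Bap1LysM (edgeR adjusted p = 0.014).

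**Figure D1:**
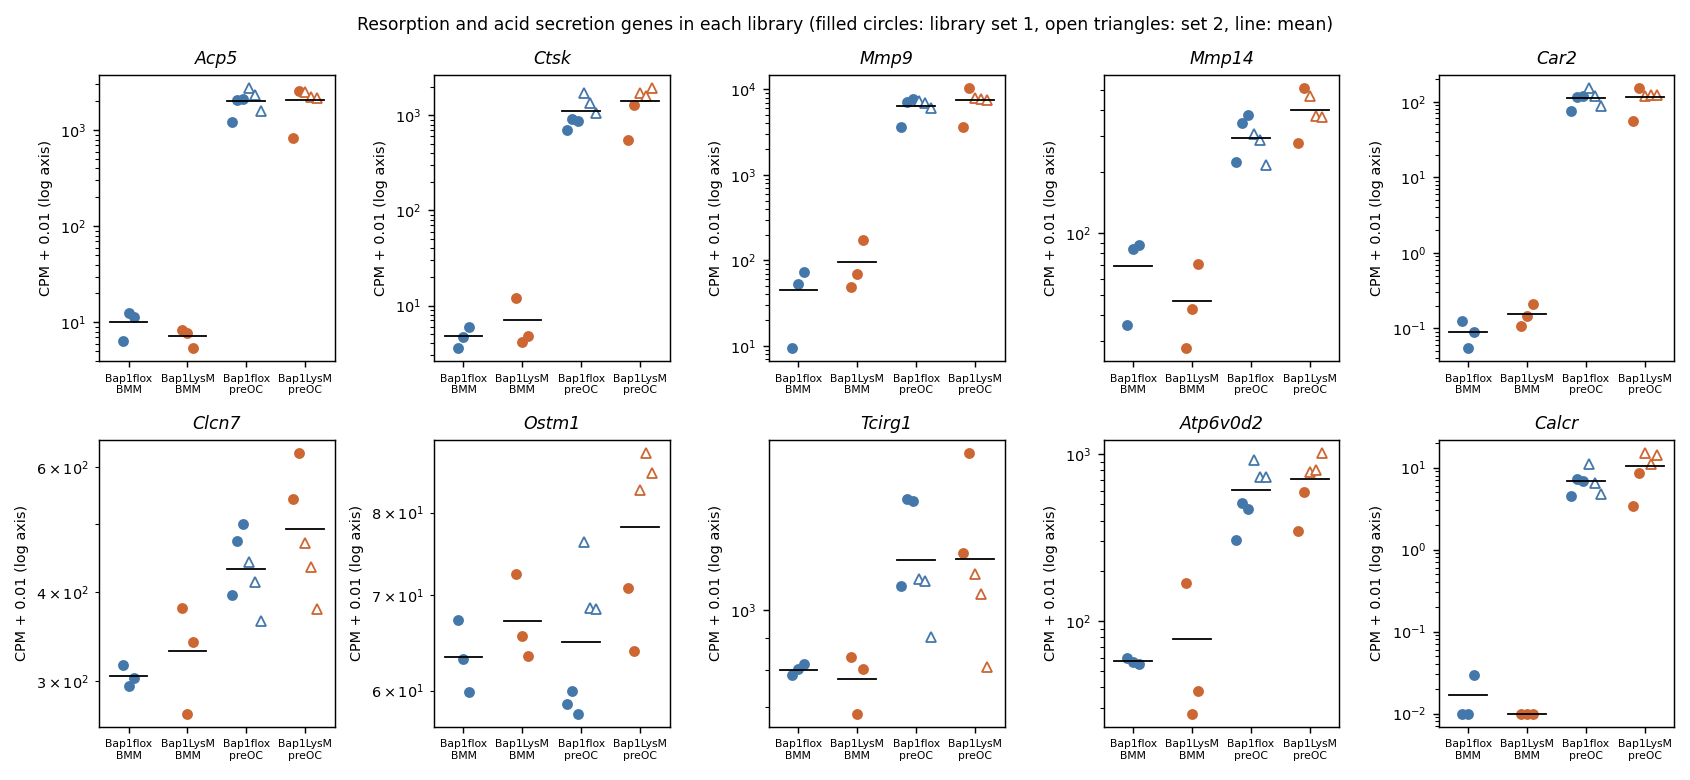
Each panel plots a gene in the 17 libraries as CPM plus 0.01 on a log axis, with filled circles for library set 1, open triangles for set 2 and a line at the group mean. Acp5, Ctsk, Mmp9, Car2 and Calcr sit far higher in preOCs, Ostm1 overlaps between stages, and the genotypes overlap in every panel.

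Of the acid secretion genes, Car2, which supplies the protons, showed the largest fitted rise among the genes with an interval in both genotypes. It was 0.116, 0.0446 and 0.0796 CPM in Bap1flox BMMs, 12 counts in all, and 0.0984, 0.134 and 0.2 CPM in Bap1LysM BMMs, 20 counts in all. In preOCs it was 76.5, 117, 119, 154, 120 and 86.5 CPM in Bap1flox and 54.8, 151, 118, 124 and 124 in Bap1LysM. The rise was 10.26 ± 0.32 on the log2 scale in Bap1flox and 9.42 ± 0.59 in Bap1LysM. From the counts alone the ratio was 1280 in Bap1flox, with a 95% exact interval of 735 to 2490 that covers counting error only.

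The chloride arm moved little. Clcn7 was already at 295 to 316 CPM in Bap1flox BMMs and reached 397 to 500 in Bap1flox preOCs of set 1 and 364 to 442 in set 2, so the stages did not overlap although the log2 rise was only 0.57 ± 0.09 (edgeR adjusted p = 0.0012). In Bap1LysM cells it rose by 0.82 ± 0.19 (edgeR adjusted p = 0.037), from 380, 270 and 341 CPM in BMMs 1 to 3 to 541 and 629 CPM in preOCs 1 and 2. In set 2 it was 469, 435 and 379 CPM, and the stages then overlapped. With all preOC libraries the rise was 0.56 ± 0.2. That Bap1LysM call was lost in the blocked fit (adjusted p = 0.054), with voomWithQualityWeights (0.062) and with all preOC libraries (0.051). Ostm1, the subunit that stabilises Clcn7, was 67.2, 63.1 and 59.8 CPM in Bap1flox BMMs and 58.7, 59.9 and 57.8 in the Bap1flox preOCs of the same set. Its log2 difference was -0.12 (95% interval -0.26 to 0.026, edgeR adjusted p = 0.13) in Bap1flox and 0.0017 (-0.31 to 0.31, adjusted p = 0.99) in Bap1LysM.

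Of the pump subunits, Tcirg1 (the a3 subunit of the osteoclast pump) rose by 0.75 ± 0.13 in Bap1flox (edgeR adjusted p = 0.0016) and 0.95 ± 0.22 in Bap1LysM (edgeR adjusted p = 0.037, but 0.06 with the block and 0.072 with all preOC libraries). It started high, at 786 to 818 CPM in Bap1flox BMMs, and reached 1090 to 1500 in Bap1flox preOCs of set 1 and 906 to 1120 in set 2. Atp6v0d2, the d2 subunit that also takes part in cell fusion, was 60.2, 56.6 and 55.1 CPM in Bap1flox BMMs and 308 to 507 in Bap1flox preOCs of set 1, with 726 to 926 in set 2. It rose by 2.89 ± 0.18 (edgeR adjusted p = 2.4e-05).

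In Bap1LysM BMMs Atp6v0d2 was 168, 27.8 and 38.2 CPM, and the first is the library with Lyz2 at 45.7% of the Bap1flox mean. The Bap1LysM rise of 2.59 ± 0.79 was not called (edgeR adjusted p = 0.068), nor with voomWithQualityWeights (0.08) or the block (0.079). With every library kept it was called with all preOC libraries (3.17 ± 0.64, adjusted p = 0.0048), in a single fit of 17 libraries (3.19 ± 0.56, 0.00023) and with no CPM filter (2.58 ± 0.57, 0.0097). Without both Bap1LysM libraries of number 1 the log2 rise of Atp6v0d2 was 4.16. That fit was chosen after seeing the data and kept 1 preOC library. The Bap1LysM calls also rested on other libraries, as did those of all genes. Without BMM replicate 2, 2 of the 10 were called, Acp5 and Car2, beside 71 of all 13562 genes. Without BMM replicate 3, 5 of the 10 were called, beside 147 of all 13545 genes.

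The size of the Bap1LysM rises moved with these libraries, though not their direction. Without both libraries of number 1, which leaves 1 preOC library, the rise was 8.6 for Acp5 (389-fold, against 237-fold with them). For Ctsk it was 8.18 (291-fold, against 133-fold). Without BMM 1 alone it was 208-fold for Ctsk. Without preOC 1 alone it was 358-fold for Acp5, 1000-fold for Car2 and 108-fold for Mmp9. Without preOC 2 alone, which leaves the library labelled preOC 1, it was 116-fold for Acp5, 361-fold for Car2, 36.9-fold for Mmp9 and 79.3-fold for Ctsk.

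Calcr, the hormone receptor, was all but silent in BMMs, with 1 count over the 3 Bap1flox libraries and 0 counts over the 3 Bap1LysM libraries, which allows up to 0.022 CPM. In preOCs it was 4.48, 7.26, 6.76, 11, 6.39 and 4.73 CPM in Bap1flox and 3.35, 8.68, 15.1, 11.1 and 14.1 in Bap1LysM. All preOC libraries had the transcript. Over set 1 the ratio in Bap1flox was 915 (95% exact interval 164 to 36200), and in Bap1LysM Calcr was at least 259-fold higher in preOCs, with 3 counts over the BMM group as the floor.

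**Figure D2:**
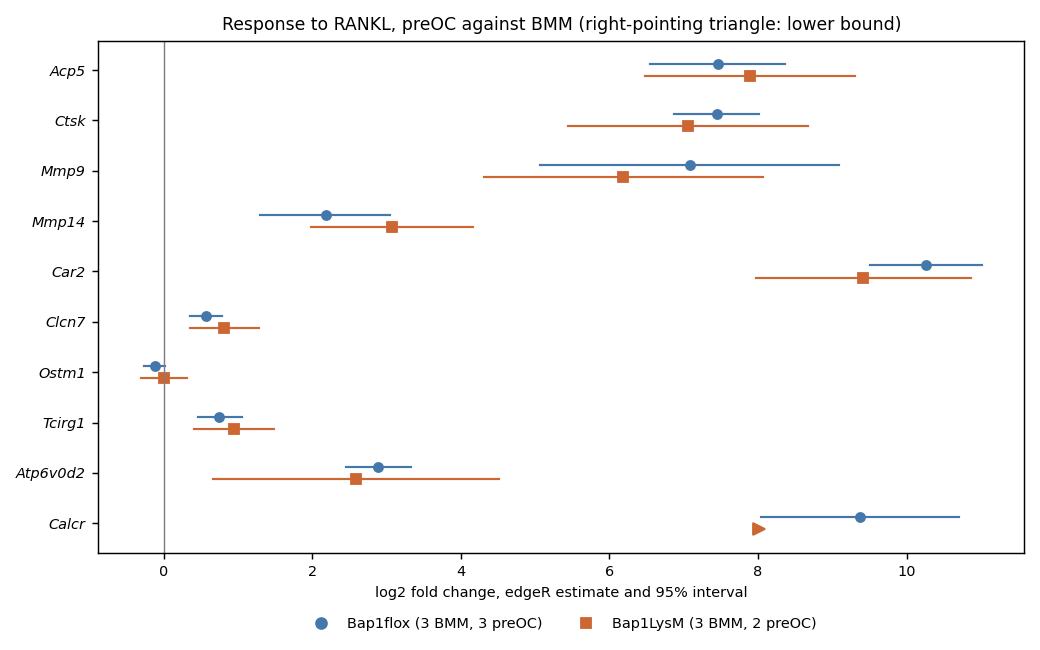
The plot gives the log2 fold change of preOC against BMM in library set 1 for each gene and genotype, with 95% intervals from edgeR. Car2, Calcr, Acp5, Ctsk and Mmp9 lie beyond 6, Clcn7 and Tcirg1 below 1 and Ostm1 on 0, and the triangle is the lower bound for Calcr in Bap1LysM.

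The other V-ATPase subunits moved in both directions around the members Tcirg1 and Atp6v0d2. Of 23 listed, 17 were tested in Bap1flox, and 13 rose and 4 fell, where 31.7% and 32.9% of all genes tested were called higher and lower, with a median log2 change of 0.4. Atp6v1b2 (1.28 ± 0.11), Atp6v1d (1.15 ± 0.11) and Atp6v0c (0.92 ± 0.056), parts of the ATP-hydrolysing head, the stalk and the membrane ring, rose. Atp6v0a1, the a1 counterpart of Tcirg1, fell by 1.87 ± 0.079, and Atp6v1g2 fell by 1.31 ± 0.2 on the log2 scale. In Bap1LysM cells 8 of the 17 rose and 0 fell by edgeR, where 10.8% and 7.6% of all genes were called higher and lower. These counts became 13 and 2 with 17 libraries and a set term, and 5 and 1 with the block or voomWithQualityWeights. Atp6v0a1 had a log2 change of -1.28 with edgeR adjusted p = 0.067.

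**Figure D3:**
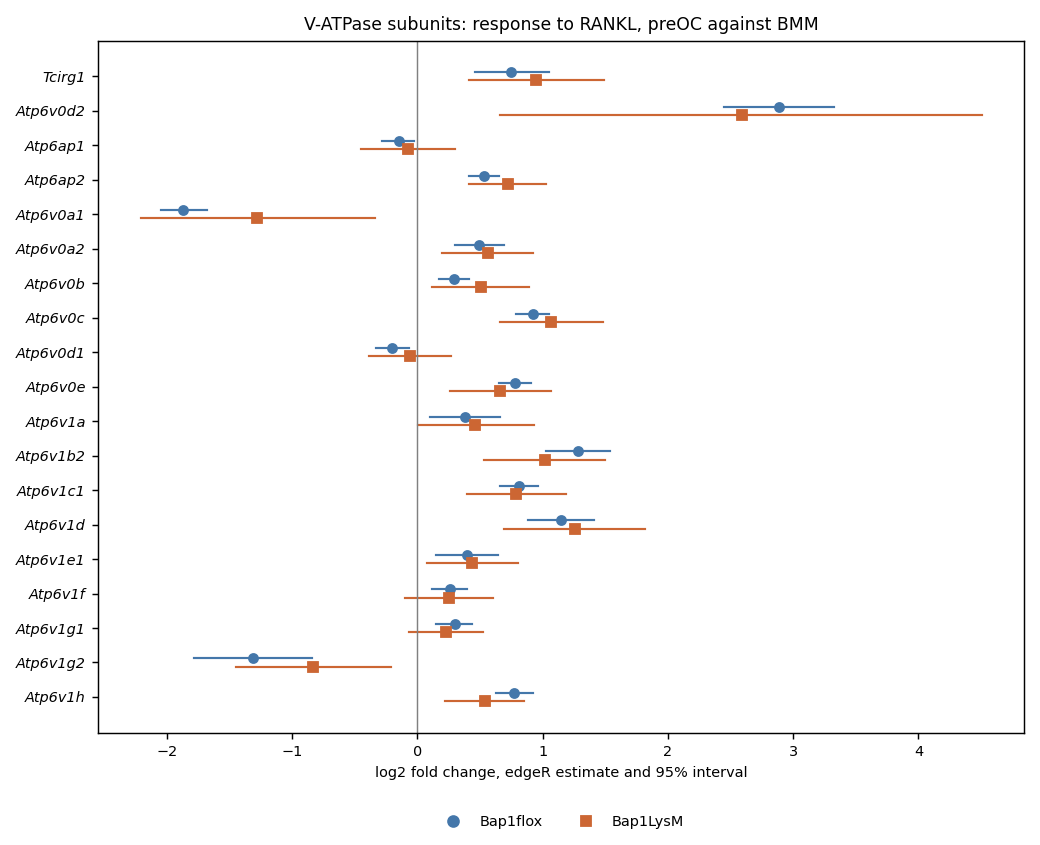
Each line is a V-ATPase subunit, with the log2 fold change of preOC against BMM and its 95% edgeR interval in Bap1flox (circles) and Bap1LysM (squares). Atp6v0d2 lies farthest right at 2.89, and Atp6v0a1 and Atp6v1g2 lie left of 0.

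In the list of ion transport and vesicle trafficking, 6 of 18 genes tested rose and 8 fell in Bap1flox. Slc4a2, the bicarbonate/chloride exchanger that works with Car2, rose by 1.36 ± 0.089, and Snx10, a sorting protein of osteoclast vesicles, by 1.18 ± 0.13. Plekhm1, a regulator of lysosome trafficking, fell by 1.15 ± 0.068. Of 26 further matrix proteases tested, 2 rose and 14 fell, again beside 31.7% and 32.9% of all genes. Among those that fell were Ctse (-2.52 ± 0.19), Ctsb (-1.91 ± 0.1) and Ctsh (-1.57 ± 0.074). Of 7 genes of TRAP processing and the mannose 6-phosphate route, which carries enzymes to lysosomes, 3 rose and 2 fell, among them Gnptab (1.75 ± 0.12), Igf2r (1.7 ± 0.078) and Sort1 (-2.82 ± 0.12). Of 9 protease inhibitors tested, 2 rose and 3 fell, led by Serpinb6a (-1.39 ± 0.091), Reck (-1.29 ± 0.2) and Cstb (1.2 ± 0.058). Their list also held Spp1, the matrix protein osteopontin and no inhibitor, which fell and is not in that count.

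Levels between genes were compared per length, as RPKM. In Bap1flox BMMs the order was Tcirg1 (180 ± 3.6, SD, n = 3), Clcn7 (57.6 ± 1.93), Mmp14 (26.6 ± 11.1), Atp6v0d2 (21.1 ± 0.967), Mmp9 (12.7 ± 9.15), Ostm1 (8.79 ± 0.511), Acp5 (6.27 ± 2), Ctsk (3.18 ± 0.812), Car2 (0.0447 ± 0.0199) and Calcr. From Mmp14 to Ostm1 each gene overlapped the next, as did Acp5 and Ctsk. After RANKL the order in Bap1flox preOCs was led by Mmp9 (1830 ± 418 RPKM, SD, n = 6), Acp5 (1250 ± 338) and Ctsk (744 ± 248), which overlapped from one to the next. Tcirg1 (269 ± 54.1), Atp6v0d2 (225 ± 82.5), Mmp14 (113 ± 25.1), Clcn7 (81.5 ± 9.46) and Car2 (62.7 ± 15.5) followed, each overlapping the next. Tcirg1 and Atp6v0d2 changed places between the library sets. In set 1 Tcirg1 was above Atp6v0d2 in every Bap1flox library (244, 336 and 334 against 113, 187 and 172 RPKM). In set 2 it was below in every one (251, 247 and 203 against 341, 271 and 267 RPKM), and the same held for the 2 and 3 Bap1LysM libraries of the sets. Ostm1 (9 ± 1.02) and Calcr (1.73 ± 0.6) stood below them without overlap. Bap1LysM preOCs had the same order of pooled means, with Mmp9 at 2110 ± 696 and Calcr at 2.68 ± 1.21 RPKM (SD, n = 5).

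**Figure D4:**
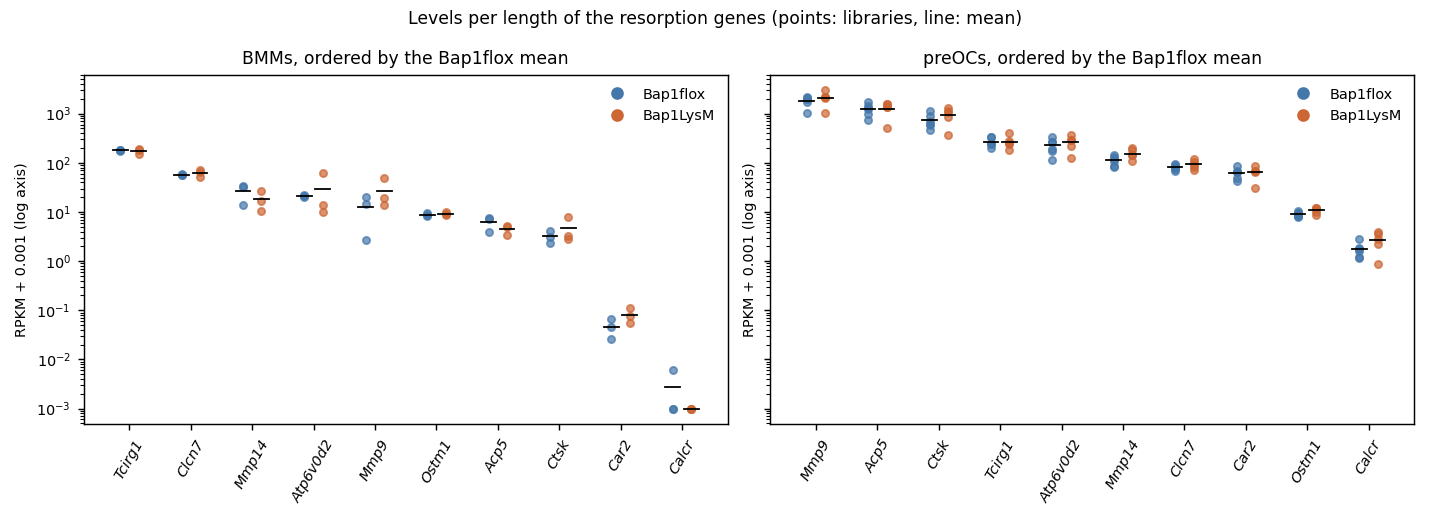
Points are libraries and lines are means of RPKM plus 0.001 on a log axis, with BMMs left and preOCs right, ordered by the Bap1flox mean. Tcirg1 leads in BMMs at 180 RPKM, and Mmp9, Acp5 and Ctsk lead in preOCs.

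The second comparison asks whether loss of Bap1 changed these genes in preOCs. None of the 10 was called (0 of 10, edgeR without pairing, 6 against 5 libraries), where 15.8% of all 12929 genes tested were called. At an unadjusted p below 0.05 there were 2, Mmp14 and Ostm1, against 30.5% of all genes. DESeq2 called 0 of the 10 as well. The median log2 difference of the 10 was 0.17, against -0.0069 over all genes. No gene of the 10 had genotypes without overlap in CPM, against 9.48% of all genes.

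The 5 main resorption genes gave log2 differences from -0.0076 to 0.33 with wide intervals. Acp5 had -0.0035 (95% interval -0.59 to 0.59), Ctsk 0.33 (-0.3 to 0.96), Mmp9 0.17 (-0.37 to 0.71), Car2 -0.0076 (-0.52 to 0.5) and Atp6v0d2 0.18 (-0.45 to 0.81), with edgeR adjusted p from 0.47 to 0.99. Clcn7 had 0.15 (-0.16 to 0.47) and Tcirg1 -0.031 (-0.48 to 0.42), and Clcn7 was higher in Bap1LysM within every shared number, by 1.04 to 1.36 times. These intervals leave room for changes of up to 1.95-fold in Ctsk, so a like level was not shown. The preOC library of number 1 was below the others of its set for 9 of the 10 genes in both genotypes, with Acp5 at 58.3% of the mean of Bap1flox 2 and 3 and at 32.7% of Bap1LysM 2.

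For 3 genes the call depended on how the library sets entered. Mmp14 was 222, 344, 379, 307, 286 and 215 CPM in Bap1flox preOCs and 277, 515, 467, 373 and 372 in Bap1LysM preOCs. Bap1LysM was higher within every shared number, by 1.25 to 1.73 times. The log2 difference was 0.42 ± 0.19 with edgeR adjusted p = 0.15. In set 2 alone it was 0.55 ± 0.14 with adjusted p = 0.019, in set 1 alone 0.31 ± 0.33 with 0.65, and with the replicate number as a block 0.51 ± 0.077 with 0.0039. Once a term for the set was in the model it did not pass, at 0.44 ± 0.18 with adjusted p = 0.083.

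Ostm1 was 58.7, 59.9, 57.8, 76.3, 68.5 and 68.4 CPM in Bap1flox preOCs and 70.8, 63.9, 82.9, 88.1 and 85.3 in Bap1LysM preOCs. It was higher in Bap1LysM within every shared number, by 1.07 to 1.29 times. The log2 difference was 0.23 ± 0.1 (edgeR adjusted p = 0.13). It passed once a term for the set was in the model (0.21 ± 0.053, adjusted p = 0.012), with the block (0.2 ± 0.063, adjusted p = 0.043) and without Bap1LysM replicate 2 (0.31 ± 0.1, adjusted p = 0.038). It did not pass within a set, with 0.23 ± 0.08 and adjusted p = 0.055 in set 2 alone and 0.18 ± 0.1 and adjusted p = 0.38 in set 1 alone.

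Calcr differed by 0.59 ± 0.34 (edgeR adjusted p = 0.26). It was 0.82 ± 0.27 with adjusted p = 0.046 in set 2 alone and -0.066 ± 0.44 with 0.95 in set 1 alone. Without the library labelled Bap1LysM 1 it was 0.81 ± 0.24 with adjusted p = 0.035. With a set term in the fit, 33.6% of all genes were called, with the block 32.8% and in set 2 alone 33.8%, and these designs called 1, 2 and 2 of the 10. The study's own method, voomWithQualityWeights, called Ctsk, Mmp14, Ostm1 and Calcr, with log2 differences of 0.55, 0.4, 0.34 and 0.84. It called 54.9% of all genes, so 4 of 10 was not above the background.

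**Figure D5:**
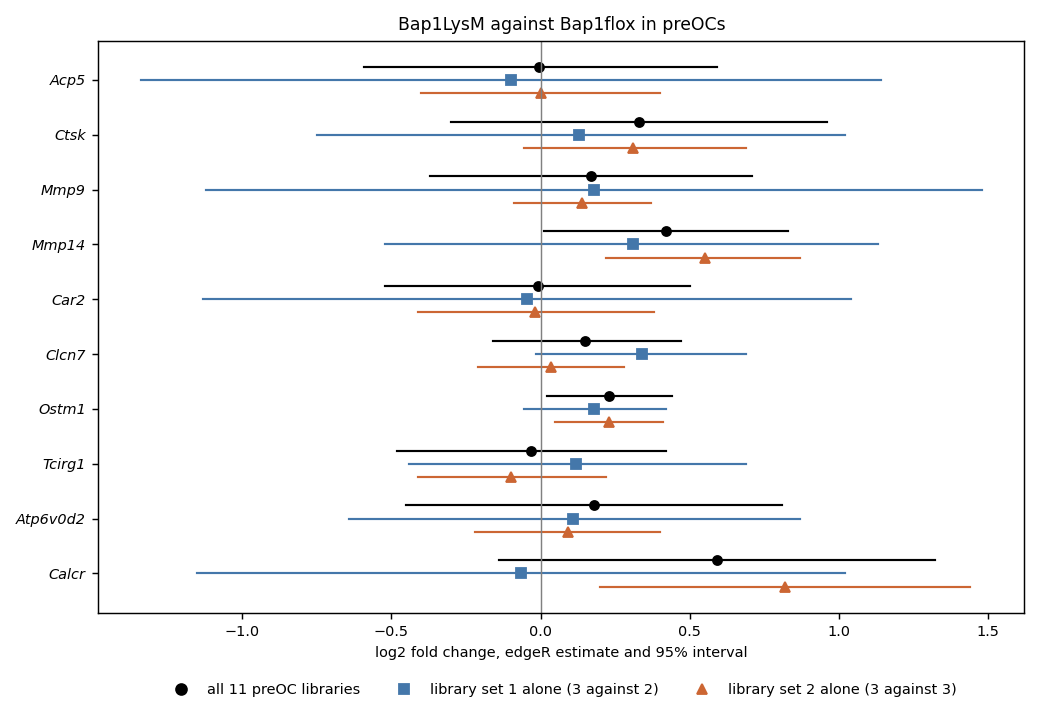
The plot gives the log2 difference of Bap1LysM against Bap1flox in preOCs with 95% edgeR intervals, for all 11 libraries and for each library set. Most intervals, which are not adjusted for the number of genes, cross 0, and in set 2 alone those of Mmp14 (0.22 to 0.87), Ostm1 (0.047 to 0.41) and Calcr (0.2 to 1.44) lie above it.

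In the surrounding pathways 12 of 77 genes tested, or 15.6%, were called by genotype in preOCs, near the 15.8% of all genes, and voomWithQualityWeights called 38, or 49.4%, against 54.9%. Of 17 V-ATPase subunits tested 1 was higher, Atp6ap1, the accessory subunit Ac45 (0.32 ± 0.075, edgeR adjusted p = 0.014). Of 18 transport and trafficking genes 2 were higher, Clcn4 (0.39 ± 0.12) and Clcn5 (0.36 ± 0.11), and 2 lower, Car5b (-1.04 ± 0.22) and Rab3d (-0.53 ± 0.13). Of 26 matrix proteases Adam9 was higher (0.5 ± 0.14), and Ctsf (-0.87 ± 0.2), Ctsl (-0.94 ± 0.26), Adamts4 (-1.18 ± 0.32) and Mmp11 (-1.21 ± 0.35) were lower. That split of 1 higher and 4 lower was 5 and 5 with a set term, 4 and 6 with the block, 7 and 8 with voomWithQualityWeights, 8 and 8 in set 2 alone, and 2 and 7 without the library labelled Bap1LysM preOC 1. Without that library the 18 transport genes split into 1 higher and 5 lower. Acp2, a lysosomal acid phosphatase, was higher (0.45 ± 0.14, edgeR adjusted p = 0.0495), the only one of 7 in its list. Of 9 genes tested in the inhibitor list, the 1 called was Spp1, which is no inhibitor (-0.99 ± 0.11, edgeR adjusted p = 0.00043).

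Markers of other cells moved with genotype in preOCs. Of 10 neutrophil markers, 9 were tested and 6 were higher in Bap1LysM, with a summed level of 185 to 646 CPM against 91.7 to 246, and Ly6g was below 1 CPM in every library. Of 11 osteoclast markers, which include 5 of the 10 genes, Tnfrsf11a, the RANKL receptor, was higher (0.33 ± 0.075) and the fusion gene Dcstamp was lower (-0.69 ± 0.17). Of the 8 macrophage markers, Mertk (1.26 ± 0.3) and Csf1r (0.41 ± 0.1) were called higher in Bap1LysM and 0 were called lower. Lyz2, also among the 8, was not called, though outside library 1 it was at 0.149 to 0.485% of the Bap1flox mean. The mitochondrial share of counts was also higher in Bap1LysM preOCs within every shared number. For numbers 1, 2, 4, 5 and 6 it was 1.02, 1.07, 3.38, 3.71 and 5.26%, against 0.667, 0.481, 2.84, 2.36 and 3.64% in Bap1flox. The part of these markers and of that share in the results on Mmp14, Ostm1 and Calcr was not tested.

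In BMMs 0 of the 8 genes tested were called by edgeR (3 against 3), where 5.32% of all 13028 genes were called, and 0 of them were at an unadjusted p below 0.05, against 26.2% of all genes. DESeq2 and voomWithQualityWeights called 0 as well. No gene of the 8 had genotypes without overlap, against 34.0% of all genes. Car2 and Calcr were below the filter. An exact two-sided permutation test of CPM gave p = 0.2 for Car2 and 1.0 for Calcr, and 3 against 3 libraries cannot go below 0.1. The median log2 difference of the 8 was 0.086, against -0.0072 over all genes.

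The intervals in BMMs were wide for the genes with uneven replicates. Mmp9 had a log2 difference of 1.09 ± 0.76 (2.13-fold, edgeR adjusted p = 0.39) and was higher in Bap1LysM for each number. With the block it was 1.3 ± 0.35 with adjusted p = 0.058, and leaving out a library gave 1.29-fold (without Bap1LysM BMM 3) to 3.11-fold (without Bap1flox BMM 3). Atp6v0d2 had 0.43 ± 0.64 (edgeR adjusted p = 0.68). Without Bap1LysM BMM 1, Atp6v0d2 was -0.81 ± 0.15 with adjusted p = 0.054, so its direction rested on that library. Mmp14 was 35.8, 83.7 and 87.6 CPM in Bap1flox and 27.5, 42.7 and 70.6 in Bap1LysM, lower in Bap1LysM for each number. Its difference of -0.57 ± 0.44 (edgeR adjusted p = 0.43) passed with the block, at -0.57 ± 0.14 and adjusted p = 0.048. The 8 stromal markers, which include collagen genes, summed to 632 to 3190 CPM (median 2790) in Bap1flox BMMs and 474 to 1510 (median 1170) in Bap1LysM BMMs, with Lum at 0 in all of them. In preOCs they summed to 239 to 2280 and 134 to 1460 CPM. Mmp14 is also a gene of stromal cells, and the part of these markers in its values was not tested.

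The third comparison asks whether the response to RANKL differed between genotypes. None of the 10 genes passed the interaction test (0 of 10, edgeR), where 0.0% of all 14106 genes were called, and 0 of the 10 were at an unadjusted p below 0.05, against 1751 of all genes (12.4%). DESeq2 called 0 of the 10. With all 17 libraries and a set term in the fit, 10.4% of all genes were called and again 0 of the 10. Mmp14, with a positive log2 difference between genotypes in preOCs and a negative one in BMMs, had an interaction of 0.88 (95% interval -0.51 to 2.27, edgeR adjusted p = 0.59), and 1.03 ± 0.44 with adjusted p = 0.15 in the larger fit. For Acp5 it was 0.43 (-0.93 to 1.78), for Ctsk -0.4 (-1.8 to 1) and for Car2 -0.85 (-3.05 to 1.35). Without both Bap1LysM libraries of number 1, which leaves 1 Bap1LysM preOC library, the value for Ctsk turned positive. The median log2 interaction of the 10 then moved from 0.15 to 0.61.

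Over the 17 libraries the induced genes followed each other, as a description of libraries that differ mainly by stage. Log2 CPM of Acp5 had a Pearson correlation of 0.995 with Calcr, 0.993 with Ctsk, 0.992 with Car2 and 0.301 with Ostm1. Of all 13810 genes, the most like Acp5 were Bhlhe40 (0.997), Jdp2 (0.997) and Slc14a2 (0.996), and Slc14a2 was also among the 3 most like Ctsk, Car2 and Calcr. Mmp9 was most like Pip5k1b (0.99), Mmp14 most like Cplx2 (0.986) and Atp6v0d2 most like Tmem38b (0.986). Clcn7 and Tcirg1 had 0.925 with each other, and their most like genes were Micall1 (0.947) and Dvl1 (0.957). Ostm1 was most like Pqlc3 (0.963).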

How the data were processed

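The authors aligned the reads to GRCm38 with STAR 2.5.1a and counted reads per gene with featureCounts 1.4.6-p5 of Subread, per the labels and the paper's methods, and deposited raw counts, CPM and RPKM for each of the 17 libraries. The strand setting is not given in the sources used here. The deposited CPM equals count over library total, and the deposited RPKM equals CPM over gene length. Tests used the counts, with 355 ribosomal RNA genes left out. Of 41388 identifiers, 40340 had a symbol in the annotation, and 0 named no gene.

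Fits used the quasi-likelihood test of edgeR 4.0.16 in R 4.3.3 with TMM factors and Benjamini-Hochberg adjustment over all genes tested, at 0.05. A gene was tested where its CPM exceeded 1 in 4 or more preOC libraries, 2 BMM libraries, 2 libraries for the RANKL response in Bap1flox, and 1 library for that in Bap1LysM and for the interaction. The RANKL response and the interaction used library set 1. Printed CPM values are TMM-scaled over the 17 libraries, and printed RPKM values are these over gene length. Log2 CPM for correlations used a prior count of 2. Alternatives were voomWithQualityWeights of limma 3.58.1, DESeq2 1.42.0, other scalings, no filter, a replicate block, library set terms and each library left out. The scripts were tested on simulated data. Tables were made with python 3.11.15, pandas 2.3.3, numpy 2.4.6, scipy 1.17.1 and matplotlib 3.10.9.

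The 10 genes and all lists were chosen with earlier results of these data known. From each other list the text names up to 5 called genes by smallest p (genotype) or largest change (RANKL in Bap1flox), and for each of the 10 genes those of the 3 most alike by correlation. The study describes the preOC samples as biologically independent. For the BMM libraries the sources used here do not say whether they came from separate animals, so their p-values measure the spread between libraries, which may be technical.

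Whether the replicate numbers pair libraries was checked by correlating deviations from group means. Correlations were 0.392 to 0.73 in preOCs over both sets and 0.363 to 0.537 in BMMs. The main fits had no term for the number, and pairing entered only as the replicate block among the alternatives. Within a preOC set the correlations were 0.42 and 0.315 in set 1 and -0.097 to 0.06 in set 2. The numbers thus deviated together in set 1 and not in set 2. Between BMMs and preOCs they were 0.238 to 0.374 in Bap1flox and 0.334 and 0.472 in Bap1LysM. Depth leaves counting error small for all of the genes except Car2 and Calcr in BMMs, where intervals and floors cover counting error only.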

Additional observations from a re-analysis of the deposited data

Results flagged for a closer look

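Of 20 groups tested for a sample far from the others, 1 was marked, and chance marks about 1 in 20. Acp5 in the library labelled Bap1LysM preOC 1 was 839 CPM, against 2150 to 2570 CPM in the other 4 of its group, a gap of 0.76 of the group's range where 0.71 is the limit for 5 libraries. In that library Lyz2 was at 80.6% of the Bap1flox mean, against 0.149 to 0.485% in the other 4. Its Ctsk (555 CPM), Mmp9 (3640 CPM), Car2 (54.8 CPM) and Calcr (3.35 CPM) were also the lowest of the group. Bap1flox preOC 1 was likewise the lowest of its group for these genes. It had 1210 CPM for Acp5, 695 for Ctsk, 3650 for Mmp9, 76.5 for Car2 and 4.48 for Calcr. How these low values relate to Lyz2 or to the replicate number was not tested.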

How the results depend on the processing

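In Bap1flox the RANKL call held for 9 of the 10 genes under every alternative, without any single library (9 to 9) included, and no gene was called in the interaction under any alternative (0 to 0 without a library). Elsewhere the counts moved, and except where fewer libraries were used the cause was not tested. For preOC genotypes voomWithQualityWeights called 4 of the 10 and 7099 of all genes, the replicate block 2 and 4236, the library set as a term 1 and 4349, set 2 alone 2 and 4304, and set 1 alone 0 and 0 (3 against 2 libraries). Leaving out a library gave 0 to 1 of the 10 and 1117 to 3112 of all genes. Upper-quartile factors called 699 higher and 1403 lower (33.3% higher), against 921 and 1122 (45.1%) with TMM. For BMM genotypes voomWithQualityWeights called 1772 of all genes, DESeq2 2065 and the replicate block 2107, with 1 of the 8 tested under the block. Leaving out a library gave 0 to 0 of the 8 and 4 to 693 of all genes. For RANKL in Bap1LysM voomWithQualityWeights called 1628 of all genes, DESeq2 4073, a single fit of 17 libraries 6694, all preOC libraries 5113, and 2 alternatives chosen after seeing the data, 17 libraries with a set term and the fit without both Bap1LysM libraries of number 1, called 6813 and 4415. Leaving out a library gave 2 to 8 of the 10 and 71 to 3634 of all genes. There the replicate block and the fit with all preOC libraries lost the calls of Clcn7 and Tcirg1, and voomWithQualityWeights that of Clcn7. For the interaction DESeq2 called 111 of all genes, the 17-library fit 288 and that with a set term 1440, and leaving out a library gave 0 to 118. In Bap1flox, leaving out a library gave 7650 to 9293 of all genes called for RANKL. The blocked fit changed no other call of the 10 than those named here and in the report.

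Signs turned only for values that were not called. In preOC genotypes Acp5 became 0.12 with voomWithQualityWeights, 0.022 with DESeq2 and with RLE factors, 0.032 in the 17-library fit and 0.00048 in set 2 alone, and Car2 0.029, 0.018, 0.018 and 0.027 in the first 4 of these. Clcn7 became -0.011 with voomWithQualityWeights, Calcr -0.066 in set 1 alone, and Tcirg1 0.014 with the block, 0.0003 in the 17-library fit, 0.0025 with a set term and 0.12 in set 1 alone. Leaving out a library gave -0.11 to 0.19 for Acp5, -0.11 to 0.16 for Car2 and -0.2 to 0.089 for Tcirg1. In BMM genotypes Atp6v0d2 became -0.18 with voomWithQualityWeights and -0.054 with the block, and leaving out a library gave -0.81 to 0.85 for it, -0.0093 to 0.24 for Clcn7, -0.11 to 0.81 for Ctsk and -0.12 to 0.03 for Tcirg1. Ostm1 under RANKL became 0.034 in the 17-library fit and 0.053 with all preOC libraries in Bap1flox. In Bap1LysM it became -0.021 with DESeq2, -0.022 with RLE factors, -0.037 with the block and -0.02 without both libraries of number 1, with -0.074 to 0.058 when a library was left out. In the interaction Ctsk became 0.73 and Atp6v0d2 1.26 without both libraries of number 1, and Atp6v0d2 0.13 with voomWithQualityWeights. Leaving out a library gave -0.59 to 1.02 for Acp5, -1.13 to 0.25 for Ctsk, -0.74 to 0.93 for Atp6v0d2, -0.039 to 2.35 for Calcr and -0.1 to 0.44 for Tcirg1.

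Where a library was left out so that 1 preOC library of Bap1LysM remained, it was assumed to vary like the others. Depth limits only Car2 and Calcr in BMMs.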
